A study of Mus musculus with 6 samples.

Results

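The unfolded protein response and ER folding genes described here are 34 mouse genes of the sensors, chaperones, disulfide enzymes, degradation machinery and translocon of the endoplasmic reticulum (ER), out of 23283 gene symbols in the deposited tables. They are taken by name and role, from a list drawn up with the rise of Xbp1 already known, and the FPKM of the transcripts listed under each symbol were summed in each library. All 34 were found, and all 34 were above the filter of a mean of 1 FPKM over the 6 libraries. FPKM counts sequenced fragments relative to transcript length and to the number of fragments mapped in that library.

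The cells were eosinophils of the small intestinal lamina propria, a granulocyte that resides there in healthy animals, taken from wild-type BALB/c mice. For 4 hours, 3 cultures were kept with GM-CSF at 10 ng/ml, a cytokine that acts on eosinophils through a receptor shared in part with IL-5, and 3 cultures were kept without it. Polyadenylated RNA was sequenced, with 1 library per culture. The labels give neither the age of the mice nor whether each culture had its own donor animals, so the p-values reflect the spread among cultures only. The sources used here do not describe how the cells were isolated.

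Proteins that enter the secretory pathway fold in the ER, and the unfolded protein response adjusts its folding capacity through 3 sensors in the ER membrane. IRE1 (Ern1) removes a short stretch from the Xbp1 messenger, after which the messenger encodes an active transcription factor for folding, secretion and degradation genes. PERK (Eif2ak3) slows translation and favours synthesis of ATF4, and ATF6 is cut in the Golgi to release a transcription factor that acts at the promoters of chaperone genes. In mice, eosinophil precursors are known to need XBP1 to mature.

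The 6 libraries rested on 0.890, 1.32 and 0.820 gigabases of mapped sequence in GM-CSF cultures and 0.939, 0.974 and 0.917 gigabases in untreated cultures, as the deposited coverage and FPKM give them. Of the members, Sdf2l1 rested on the fewest mapped bases in a library (6585) and P4hb on the most in a library (992889). Of 10106 genes tested, 2212 changed (21.9%), 776 higher (7.68%) and 1436 lower (14.2%), at an adjusted p under 0.05 by limma. Median-of-ratios scaling turned that split into 1078 higher and 969 lower. The eosinophil receptor Siglecf (listed as Siglec5) averaged 170.4 ± 8.93 FPKM in GM-CSF and 170.1 ± 11.1 FPKM in untreated libraries (SD, n = 3 each), and Ccr3 averaged 251.3 ± 22.8 and 289.0 ± 24.5 FPKM in the same order. The granule genes Epx and Prg2 were also detected, at means of 4.27 and 8.93 FPKM in GM-CSF libraries, against 6.62 and 8.85 FPKM in untreated ones. Of the 8 eosinophil markers tested, 4 fell (Alox15, Il5ra, Cebpe and Epx), 1 rose (Gata1) and 3 did not pass, and the list summed to 741.9 to 844.7 FPKM with GM-CSF and 1130.8 to 1314.3 FPKM without it.

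Xbp1 rose 6.11-fold with GM-CSF, while most of the other members did not pass the test. With GM-CSF, 5 members rose (Xbp1, Pdia4, Manf, Edem1 and Ero1l), 4 fell (Herpud1, Eif2ak3, Derl1 and Dnajb9) and 25 did not pass the test. The 9 changed members are 26.5% of 34, beside 21.9% of all genes tested. Without Xbp1, whose rise was known when the list was drawn up, 4 rose and 4 fell of 33 (24.2%). The 5 of 34 that rose (4 of 33 without Xbp1) are set beside 7.68% of all genes, and the 4 of 34 that fell beside 14.2%. The groups did not overlap in 15 of 34 members (14 of 33 without Xbp1), beside 39.2% of all genes tested. The median log2 fold change of the members was 0.03 (0.02 without Xbp1), beside -0.05 for all genes tested. All log2 fold changes are on the log2(FPKM + 1) scale, on which changes of genes at low FPKM appear smaller than they are.

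Only Xbp1 and Pdia4 had a log2 fold change of at least 1 in either direction, as did 179 of the changed genes in the whole table. Among the 25 members that did not pass the test, log2 fold changes lay between -0.24 and 0.19, and their 95% intervals reached no lower than -0.49 and no higher than 0.35. The members were well expressed in untreated eosinophils, with a median of 40.6 FPKM, against 11.0 FPKM over all genes tested. Their levels ran from 4.12 FPKM for Ern1 to 343.4 FPKM for Atf4. Together the members took 0.506%, 0.510% and 0.510% of the summed FPKM in GM-CSF libraries, against 0.484%, 0.448% and 0.469% in untreated libraries. Without Xbp1 these shares were 0.488%, 0.490% and 0.488% with GM-CSF and 0.480%, 0.445% and 0.465% without it.

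**Figure D1:**
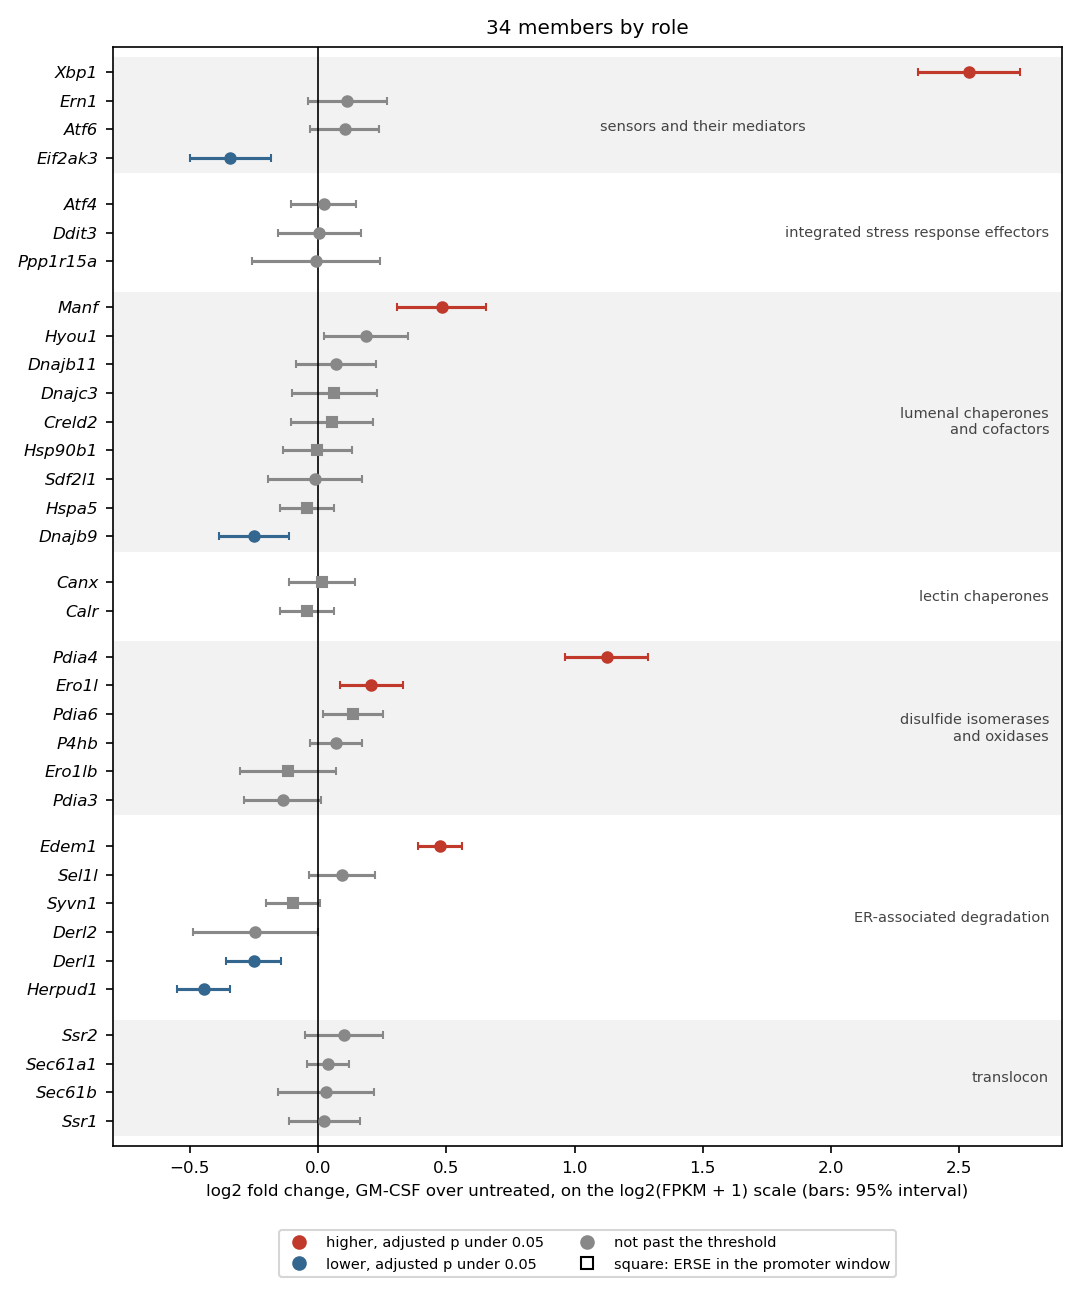
The log2 fold change (GM-CSF over untreated, log2(FPKM + 1) scale, horizontal axis) of each of the 34 members, grouped by role, with bars for the 95% limma interval. Xbp1 and Pdia4 stand to the right of 1, and 25 members, drawn in grey, did not pass the threshold. Squares mark the 9 members with an ERSE in their promoter window, all of them grey.

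Xbp1 encodes the transcription factor of the IRE1 branch, and IRE1 removes 26 bases from its messenger. The site lies in exon 4 of Xbp1, on the forward strand at chr11:5524279-5524304 (GRCm38, GENCODE M21), inside the coding sequence. It is shown here because the deposited tables list a transcript with these bases and another without them. Capitals mark the removed bases in the window chr11:5524252-5524331, and the joined line gives the same stretch after removal.

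Xbp1 before removal: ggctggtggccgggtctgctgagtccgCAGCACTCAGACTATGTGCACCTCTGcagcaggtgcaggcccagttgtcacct
Xbp1 after removal: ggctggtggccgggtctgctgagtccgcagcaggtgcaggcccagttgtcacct

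Both ends carry the letters CNGCAG, as CCGCAG at the 5′ end and CTGCAG at the 3′ end. The reading frame is 267 codons long with the 26 bases and 371 codons long without them.

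Xbp1 (chr11:5520641-5525993) had 87.6, 94.3 and 100.05 FPKM in GM-CSF libraries, against 16.5, 13.6 and 16.0 FPKM in untreated libraries. Every GM-CSF library was more than 5 times above every untreated library. The means were 94.0 ± 6.22 and 15.4 ± 1.54 FPKM in the same order (SD, n = 3 each), a 6.11-fold difference, and 34 genes of the whole table had a larger log2 rise. The log2 fold change was 2.54 with an SE of 0.08 (95% interval 2.34 to 2.74, limma adjusted p = 9.09e-06).

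Both listed Xbp1 transcripts rose. The transcript of 2221 nt, without the 26 bases, had 48.8, 50.0 and 36.2 FPKM in GM-CSF libraries, against 7.82, 6.65 and 5.46 FPKM in untreated libraries (log2 fold change 2.59, SE 0.17, limma adjusted p = 0.00077 over 12062 transcripts). The transcript of 2247 nt, with the 26 bases, had 38.8, 44.3 and 63.9 FPKM with GM-CSF, against 8.71, 6.99 and 10.5 FPKM without it (log2 fold change 2.34, SE 0.22, limma adjusted p = 0.00271). For neither transcript did the groups overlap.

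The share of Xbp1 FPKM on the shorter transcript did not separate the groups. It was 55.7%, 53.0% and 36.2% in GM-CSF libraries, against 47.3%, 48.7% and 34.2% in untreated libraries. Each GM-CSF library was above the untreated library of the same replicate number, and replicate 3 was lowest in both groups. The labels do not say that the numbers pair the cultures, and the test below does not use them. A shift within such pairs was not tested. The means were 48.3% ± 10.6 and 43.4% ± 8.02 in the same order (SD, n = 3 each), and the difference of 4.91 percentage points was smaller than either SD (exact two-sided permutation test, p = 0.5, where 0.1 is the smallest p the design allows). The rows differ over 26 bases only, the division is the authors' estimate, and the sources used here do not say how reads were assigned. Such estimates varied within groups for other members too: the 4253 nt Canx transcript took 31.1%, 64.3% and 60.9% of Canx FPKM in the GM-CSF libraries and 65.3%, 77.3% and 70.4% in the untreated ones. These Canx shares did not overlap between the groups (exact two-sided permutation test, p = 0.1).

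**Figure D2:**
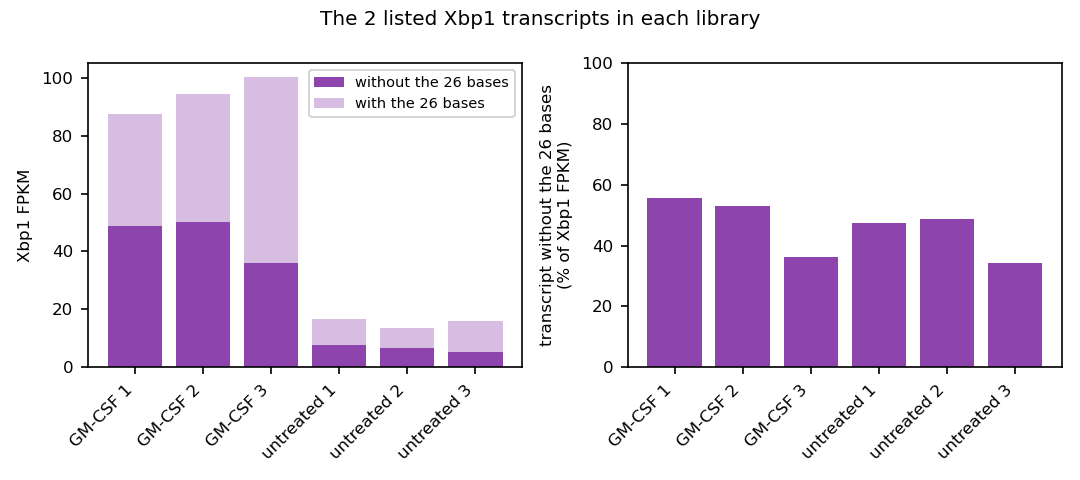
FPKM of the Xbp1 transcripts with and without the 26 bases in each library (left, stacked bars), and the percentage of Xbp1 FPKM on the transcript without them (right). The total lies between 87.6 and 100.05 FPKM in the 3 GM-CSF libraries and between 13.6 and 16.5 FPKM in the 3 untreated ones, while the percentages of the groups overlap.

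Plasma cells and secretory epithelial cells also use Xbp1, so their markers are given beside it. The summed level of 13 B and plasma cell markers was 27.1 to 28.6 FPKM in GM-CSF libraries, against 44.9 to 53.1 FPKM in untreated libraries. Of 7 tested, 0 rose and 6 fell by limma, beside 14.2% of all genes tested that fell, and 0 of 7 had a log2 fold change above 0. The joining chain gene Igj averaged 3.88 FPKM with GM-CSF and 8.24 FPKM without it. Mzb1, a plasma cell ER protein, averaged 0.725 FPKM with GM-CSF and 2.01 FPKM without it. The call of Igj was lost in 10 of 15 alternatives, 4 of them without GM-CSF replicate 1, 2 or 3 or untreated replicate 1 (adjusted p up to 0.119). That of Mzb1 was lost in 7, 4 of them without GM-CSF replicate 2 or 3 or untreated replicate 2 or 3 (adjusted p up to 0.0856). The summed level of 15 epithelial markers was 60.4 to 75.6 FPKM in GM-CSF libraries, against 94.3 to 103.0 FPKM in untreated ones, with 0 higher and 5 lower of 10 tested. Of these, 1 had a log2 fold change above 0, Epcam, at 14.6 FPKM with GM-CSF and 11.8 FPKM without it, which did not pass. The call of Krt8, an epithelial marker that fell, was lost in 4 of 15 alternatives (limma adjusted p up to 0.0884). The part of these cells in the Xbp1 result was not tested.

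For the members that fell, the other lists are given as well. T cell markers summed to 15.0 to 17.4 FPKM with GM-CSF and 27.6 to 28.8 FPKM without it. By limma 4 of 4 tested fell, beside 14.2% of all genes tested. Macrophage and dendritic cell markers summed to 555.6 to 572.6 FPKM with GM-CSF and 576.6 to 618.9 FPKM without it (3 of 5 tested fell), and mast cell markers to 8.08 to 11.1 and 8.26 to 20.5 FPKM in the same order (1 of 3 fell, and Tpsb2 was listed at 0 in all 6 libraries). Stromal and endothelial markers summed to 8.31 to 8.41 FPKM with GM-CSF and 3.39 to 3.99 FPKM without it, where Pdgfra was the 1 gene tested and rose. Some of these calls depended on the fit. That of the T cell marker Cd3d was lost in 9 of 15 alternatives (limma adjusted p up to 0.0939). That of the macrophage marker Lyz2 was lost in 10 (up to 0.120). The calls of Lck and Pdgfra were lost in 1 alternative each, with the highest transcript in place of the sum. The fall of eosinophil markers is given above. The part of these shifts in the members' falls was not tested, and in bulk RNA fewer cells of a type and less RNA per cell cannot be told apart.

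Among the sensors, 1 fell and the others did not pass the test. Eif2ak3, which encodes PERK, had 8.95, 9.33 and 10.1 FPKM in GM-CSF libraries, against 11.5, 12.5 and 12.7 FPKM in untreated libraries. The groups did not overlap, and the level with GM-CSF was 0.771 times that without it (log2 fold change -0.34, SE 0.07, limma adjusted p = 0.0121). Ern1, which encodes the enzyme that cuts Xbp1, had 4.67, 4.34 and 4.62 FPKM in GM-CSF libraries, against 4.26, 4.04 and 4.07 FPKM in untreated libraries. These groups did not overlap, yet the log2 difference of 0.11 did not pass the test (95% interval -0.04 to 0.27, limma adjusted p = 0.265). Atf6 had 13.7, 13.0 and 14.2 FPKM in GM-CSF libraries, against 13.1, 12.2 and 12.6 FPKM in untreated ones, and the groups overlapped (log2 fold change 0.10, 95% interval -0.03 to 0.24, limma adjusted p = 0.244). Protein levels and phosphorylation of the sensors were not measured.

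The 3 effectors of the integrated stress response, the program downstream of PERK and related kinases, were abundant and overlapped between groups. Atf4, its central transcription factor, had 356.2, 359.0 and 330.8 FPKM in GM-CSF libraries, against 351.7, 353.6 and 324.8 FPKM in untreated libraries. Its log2 fold change was 0.02 (95% interval -0.10 to 0.15, limma adjusted p = 0.816). Ddit3, which encodes the factor CHOP, had 136.7, 141.0 and 119.3 FPKM with GM-CSF, against 135.6, 130.1 and 128.8 FPKM without it (log2 fold change 0.01, 95% interval -0.16 to 0.17, limma adjusted p = 0.968). For Ppp1r15a, a phosphatase subunit that restores translation, the log2 fold change was -0.01 (95% interval -0.26 to 0.24). ATF4 is controlled largely through translation, which these libraries do not measure.

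Of the 9 lumenal chaperones and cofactors, Manf rose, Dnajb9 fell and 7 did not pass the test. Hspa5, which encodes BiP, the main ER Hsp70, had 123.0, 123.9 and 132.6 FPKM in GM-CSF libraries, against 132.4, 126.6 and 132.0 FPKM in untreated libraries. The groups overlapped, and the log2 fold change of -0.04 had a 95% interval from -0.15 to 0.06 (limma adjusted p = 0.550). Hsp90b1, the ER Hsp90, had 195.0, 201.6 and 210.7 FPKM with GM-CSF, against 217.2, 192.9 and 198.6 FPKM without it, again overlapping (log2 fold change -0.00, 95% interval -0.14 to 0.13, limma adjusted p = 0.985). Both signs turned positive under median-of-ratios scaling, without passing the test.

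Manf, a secreted protein that resides in the ER and binds BiP, had 32.0, 32.0 and 29.2 FPKM in GM-CSF libraries, against 20.2, 23.9 and 21.8 FPKM in untreated libraries. The lowest GM-CSF library was above the highest untreated one, and the rise was 1.41-fold (log2 fold change 0.48, SE 0.07, limma adjusted p = 0.00487). Dnajb9, which encodes ERdj4, a BiP cochaperone shown in hamster cells to repress IRE1, had 9.97, 10.0 and 10.1 FPKM in GM-CSF libraries, against 12.9, 11.5 and 12.0 FPKM in untreated libraries. Without overlap, the level with GM-CSF was 0.827 times that without it (log2 fold change -0.25, SE 0.06, limma adjusted p = 0.0231). This call was lost in 8 of 15 alternatives, among them the omission of GM-CSF replicate 1, 2 or 3 or of untreated replicate 1 or 3, with adjusted p between 0.0512 and 0.0764.

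Among the other lumenal members, Sdf2l1, a cofactor of BiP, had 6.68, 6.07 and 7.27 FPKM in GM-CSF libraries and 6.40, 6.85 and 6.90 FPKM in untreated libraries (log2 fold change -0.01, 95% interval -0.19 to 0.17, limma adjusted p = 0.946). Hyou1, a large Hsp70 relative that exchanges nucleotide on BiP, had 14.3, 15.7 and 14.3 FPKM with GM-CSF, against 12.3, 12.4 and 14.0 FPKM without it. These did not overlap, but the log2 difference of 0.19 did not pass (limma adjusted p = 0.108). Under median-of-ratios scaling Hyou1 passed, at 0.26 (limma adjusted p = 0.0286). Dnajb11 and Dnajc3, cochaperones of BiP, and Creld2 had log2 fold changes of 0.07, 0.06 and 0.05. The lectin chaperones calreticulin (Calr) and calnexin (Canx), which hold glycoproteins while they fold, had log2 fold changes of -0.04 and 0.02, and neither passed.

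ERSE is the ER stress response element that ATF6 and XBP1 are known to use. It was searched for in promoter windows from 250 bases before to 50 bases after a start listed for the gene (RefSeq, GRCm38.p6). Both strands were read for the letters CCAAT and CCACG with 9 bases of any kind between them. Such windows were at hand for 28 of 34 members. The listed start differs from the start of the gene interval for Edem1, Eif2ak3, Ero1lb and a second window of Derl2. For Edem1 the 250 bases were chr6:108828391-108828640, inside the gene, which starts at 108824045. The element was in 9 of 28 members (32.1%, counted by gene), against 39 of 32851 windows of all genes (0.119%, counted by window). Because the members were chosen by role in this pathway, these shares are a description and not a test. The sites of Hspa5, Hsp90b1, Calr, Pdia6 and Syvn1 are shown as examples, with the fixed letters in capitals and the spacer in lower case, 5′ to 3′ along the strand of the match.

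Hspa5, chr2:34772025-34772043: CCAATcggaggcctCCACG
Hsp90b1, chr10:86705638-86705656: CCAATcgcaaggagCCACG
Hsp90b1, chr10:86705533-86705551: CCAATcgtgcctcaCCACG
Calr, chr8:84847075-84847093: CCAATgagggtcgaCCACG
Pdia6, chr12:17266491-17266509: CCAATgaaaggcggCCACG
Syvn1, chr19:6046532-6046550: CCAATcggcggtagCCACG

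The other carriers were Canx, Creld2, Dnajc3 and Ero1lb. Of the 9 carriers 0 rose or fell by limma (1, Pdia6, had an unadjusted p under 0.05), beside 21.9% of all genes tested, and their log2 fold changes lay between -0.12 and 0.14 with a median of -0.00. Pdia6 passed under median-of-ratios scaling and quantile normalization. Whether carriers differ from the other members was not tested. None of the windows of Xbp1, Pdia4, Edem1, Ero1l and Dnajb9 held these letters, and Manf and Derl1 had no window. As an example of each kind, the 250 bases upstream of Hspa5, with its exact ERSE match in capitals, and of Pdia4, which holds none, are shown. Only exact matches were searched for, so near matches stay in lower case.

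Hspa5, chr2:34771840-34772089, forward strand: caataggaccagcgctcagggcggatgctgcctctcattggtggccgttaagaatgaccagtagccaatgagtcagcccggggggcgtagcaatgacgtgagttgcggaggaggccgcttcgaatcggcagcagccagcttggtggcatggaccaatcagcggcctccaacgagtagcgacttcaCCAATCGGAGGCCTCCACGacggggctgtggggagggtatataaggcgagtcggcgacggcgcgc
Pdia4, chr6:47813513-47813762, reverse strand: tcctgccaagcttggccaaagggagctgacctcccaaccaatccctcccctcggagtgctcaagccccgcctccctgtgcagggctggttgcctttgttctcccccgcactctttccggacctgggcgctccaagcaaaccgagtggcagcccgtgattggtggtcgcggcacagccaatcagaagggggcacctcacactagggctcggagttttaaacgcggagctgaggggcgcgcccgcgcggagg

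The same windows were searched for other elements of the pathway, and for CRE and STAT letters. ERSE-II, the letters ATTGG and CCACG around 1 base of any kind, was in 12 of 32851 windows (0.0365%) and in those of Dnajb11 and Herpud1, where the Herpud1 match at chr8:94386377-94386387 read ATTGGgCCACG. The XBP1-binding core TGACGTGG was in 222 windows (0.676%) and in 0 of 28 members. The composite element that ATF4 and C/EBP factors are known to bind, TGATGCAA, was in 294 windows (0.895%) and in that of Herpud1. The CRE letters TGACGTCA were in 588 windows (1.79%) and, among members, in that of Ppp1r15a. The STAT letters TTCNNNGAA were in 2726 windows (8.30%) and, among members, in that of Eif2ak3. A match is a description of letters, and a missing match says only that they are not in this window.

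Disulfide isomerases and oxidases form and rearrange disulfide bonds, and of 6 such members 2 rose and 4 did not pass. Pdia4, the isomerase ERp72, had 33.8, 32.9 and 37.5 FPKM in GM-CSF libraries, against 14.4, 15.7 and 16.0 FPKM in untreated libraries. Every GM-CSF library was more than 2 times above every untreated one. Its means were 34.7 ± 2.40 and 15.4 ± 0.866 FPKM in the same order (SD, n = 3 each), which is 2.26-fold (log2 fold change 1.13, SE 0.07, limma adjusted p = 0.000107).

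Ero1l, the oxidase that passes oxidizing equivalents to the isomerases, had 39.4, 42.2 and 44.1 FPKM in GM-CSF libraries, against 35.8, 36.1 and 36.3 FPKM in untreated libraries. The groups did not overlap, and the rise was 1.16-fold (log2 fold change 0.21, SE 0.05, limma adjusted p = 0.0289). That call was lost without GM-CSF replicate 2 or 3, without untreated replicate 1, 2 or 3 and without the variance trend, with an adjusted p of up to 0.0863. P4hb, the founding isomerase and the most abundant of the group, averaged 296.9 FPKM with GM-CSF and 283.1 FPKM without it (log2 fold change 0.07, limma adjusted p = 0.306). Pdia6 averaged 54.7 FPKM with GM-CSF and 49.7 FPKM without it, with a log2 difference of 0.14 that did not pass (limma adjusted p = 0.0971) but did under median-of-ratios scaling (0.0136) and quantile normalization (0.0467). For Pdia3 and Ero1lb the log2 fold changes were -0.14 and -0.12, and neither passed.

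The 6 members of ER-associated degradation, which extracts misfolded proteins to the proteasome, moved in both directions, with 1 higher, 2 lower and 3 that did not pass. Edem1, a lectin-like protein that selects misfolded glycoproteins, had 94.7, 96.9 and 99.3 FPKM in GM-CSF libraries, against 69.6, 69.3 and 69.4 FPKM in untreated libraries. The gap between the groups was far wider than the spread in either, and the rise was 1.40-fold (log2 fold change 0.48, SE 0.04, limma adjusted p = 0.000253).

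Herpud1, an ER membrane protein that organizes the degradation complex, had 54.0, 52.3 and 56.8 FPKM in GM-CSF libraries, against 75.1, 73.6 and 74.6 FPKM in untreated libraries. The groups did not overlap, and the level with GM-CSF was 0.731 times that without it (log2 fold change -0.45, SE 0.04, limma adjusted p = 0.00076). Derl1, a membrane channel component, had 67.6, 70.8 and 74.3 FPKM with GM-CSF, against 85.0, 83.9 and 84.7 FPKM without it. It too showed no overlap (0.839 times, log2 fold change -0.25, SE 0.04, limma adjusted p = 0.00878).

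Derl2, its relative, averaged 7.88 FPKM in GM-CSF libraries and 9.58 FPKM in untreated ones, and the groups overlapped (log2 fold change -0.24, limma adjusted p = 0.145). Without untreated replicate 1 it passed, at -0.36 (limma adjusted p = 0.0189). The ubiquitin ligase Syvn1 and its partner Sel1l had log2 fold changes of -0.10 and 0.09, and neither passed. The 4 translocon members, Sec61a1, Sec61b, Ssr1 and Ssr2, which form or assist the channel into the ER, had log2 fold changes of 0.02 to 0.10, and 0 of 4 passed by limma (0 at an unadjusted p under 0.05).

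**Figure D3:**
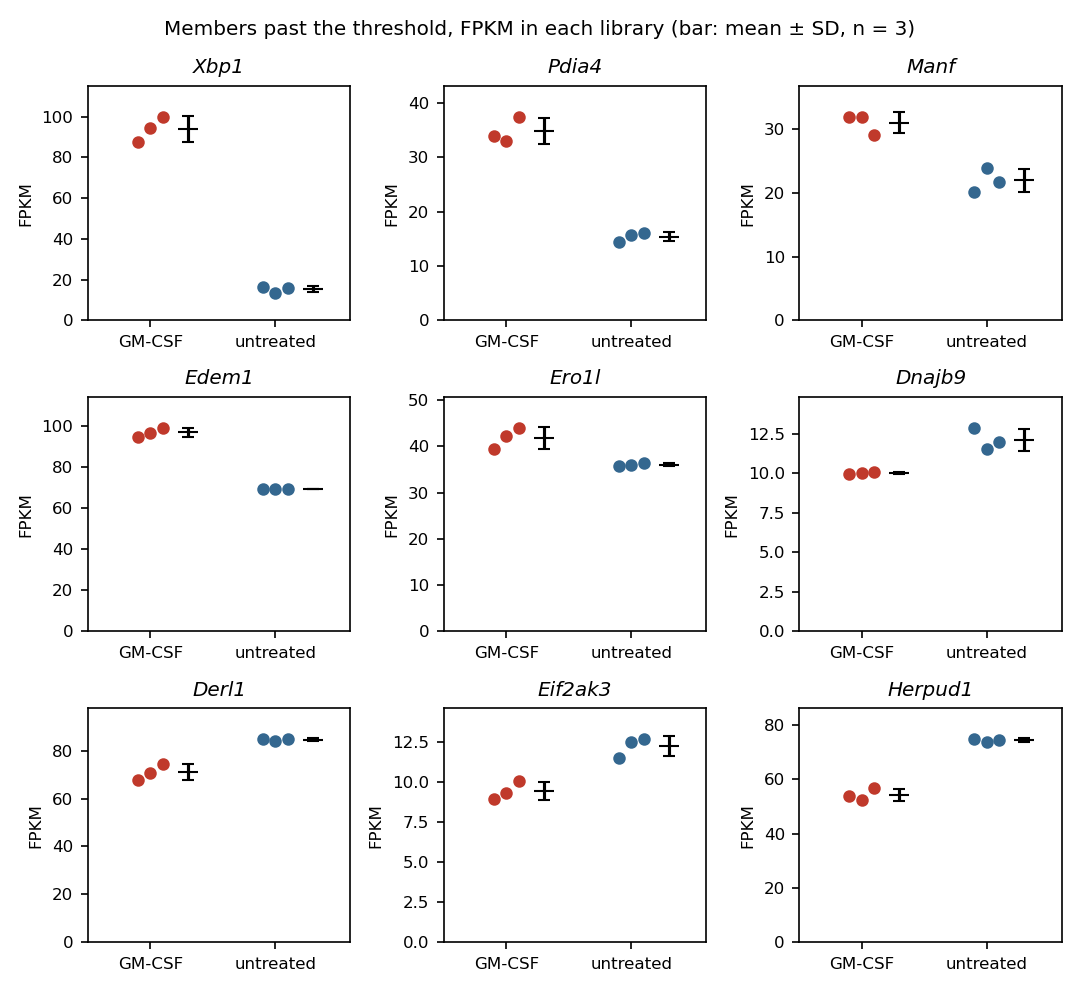
FPKM of the 9 members past the threshold in each library (points), with the mean and SD of each group (bars, n = 3). The groups do not overlap in any panel, and Xbp1 and Pdia4 show the widest gaps relative to their levels.

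The rest of the pathway was read in 6 lists of 143 related genes outside the members, of which 123 were tested. Of these, 12 rose and 7 fell by limma (15.4% changed, beside 21.9% of all genes tested). Under median-of-ratios scaling 26 rose and 5 fell, and under quantile normalization 20 rose and 5 fell. Without GM-CSF replicate 3, 4 fell.

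Known XBP1 and secretory pathway genes moved in both directions, with 3 higher and 2 lower of 42 tested and a median log2 fold change of -0.03, beside -0.05 for all genes. Under median-of-ratios scaling 7 rose and the median was 0.04, beside 0.01 for all genes. Serp1, which protects the translocon under stress, rose to a mean of 88.7 FPKM with GM-CSF, against 65.6 FPKM without it (log2 fold change 0.43, limma adjusted p = 0.0115). Preb, which starts the assembly of vesicle coats at the ER, fell to 43.7 FPKM with GM-CSF, against 60.6 FPKM without it (log2 fold change -0.46, limma adjusted p = 0.00211). Sec11c, a signal peptidase subunit, fell to 102.1 FPKM with GM-CSF, against 132.0 FPKM without it (log2 fold change -0.37, limma adjusted p = 0.00212). Sar1b, a coat GTPase, had a log2 fold change of 0.36 (limma adjusted p = 0.0267), a call lost in 6 alternatives, 4 of them without GM-CSF replicate 1 or 3 or untreated replicate 1 or 3 (highest adjusted p 0.0750).

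The list of ER folding enzymes had 0 changed genes of 17 tested by limma (3 at an unadjusted p under 0.05) and a median of 0.01. Under median-of-ratios scaling 3 rose and the median was 0.08, and 1 rose under quantile normalization and under the filter at 5 FPKM. Among ER degradation genes, 2 rose and 1 fell of 19 tested, with a median of -0.00, and under median-of-ratios scaling 3 rose, 0 fell and the median was 0.07. Vimp, a selenoprotein of the degradation complex, rose by 0.30 on the log2 scale (limma adjusted p = 0.0117). Ngly1, which strips glycans from extracted proteins, had a log2 fold change of 0.36 (limma adjusted p = 0.0194), lost without GM-CSF replicate 1, 2 or 3. The mannosidase Man1b1 had -0.14 (limma adjusted p = 0.0343), lost in each of the 6 fits that leave out a library.

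Among known ATF4 and PERK targets 7 rose and 1 fell of 23 tested (34.8%, beside 21.9% of all genes), with a median of 0.14. Without GM-CSF replicate 1 or 2 or untreated replicate 2, 5 rose, and under median-of-ratios scaling 9 rose. The median was 0.08 without GM-CSF replicate 3, 0.09 without untreated replicate 3 and 0.06 with no filter on low values. Nupr1, a stress-induced chromatin protein, had 5.82, 4.43 and 5.80 FPKM in GM-CSF libraries, against 0.995, 1.40 and 0.0927 FPKM in untreated libraries. Its levels were low, and the groups did not overlap (log2 fold change 1.86, limma adjusted p = 0.00535). Slc7a5, an amino acid transporter, averaged 16.8 FPKM with GM-CSF and 11.5 FPKM without it (log2 fold change 0.51, limma adjusted p = 0.00566). Mthfd2, a mitochondrial folate enzyme, averaged 19.5 FPKM with GM-CSF and 14.0 FPKM without it (log2 fold change 0.45, limma adjusted p = 0.00471). Ddit4, an inhibitor of mTOR signalling, had a log2 fold change of -0.45 (limma adjusted p = 0.0387), a call lost in 10 of 15 alternatives, among them 5 that leave out GM-CSF replicate 2 or 3 or untreated replicate 1, 2 or 3 (highest adjusted p 0.106). Many of these targets also respond to amino acid supply, and which pathway acts on them was not tested.

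Stress signalling genes had 0 higher and 2 lower of 17 tested. With 2 lower in each case, 4 were higher under median-of-ratios scaling, and 2 under quantile normalization and under the filter at 5 FPKM. The kinase Map3k5 had a log2 fold change of -0.35 (limma adjusted p = 0.0188), lost without GM-CSF replicate 1 or 3. Bcl2l11, a mediator of cell death, had -0.29 (limma adjusted p = 0.00724), lost when its highest transcript stood in place of the sum (0.199). Of 10 messengers known as substrates of IRE1-dependent decay, 5 were tested, 1 fell, and 0 of 5 had a log2 fold change above 0, beside 3784 of 10106 genes tested. Hgsnat, a lysosomal acetyltransferase, had 6.87, 8.32 and 7.70 FPKM with GM-CSF, against 13.2, 14.6 and 12.0 FPKM without it, without overlap (log2 fold change -0.73, limma adjusted p = 0.00268). Bloc1s1, the substrate most often used to read this decay in mice, averaged 72.9 FPKM with GM-CSF and 83.0 FPKM without it. Its log2 difference of -0.18 did not pass (limma adjusted p = 0.0914). It passed without untreated replicate 3 (0.0434) and with the replicate number as a block.

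**Figure D4:**
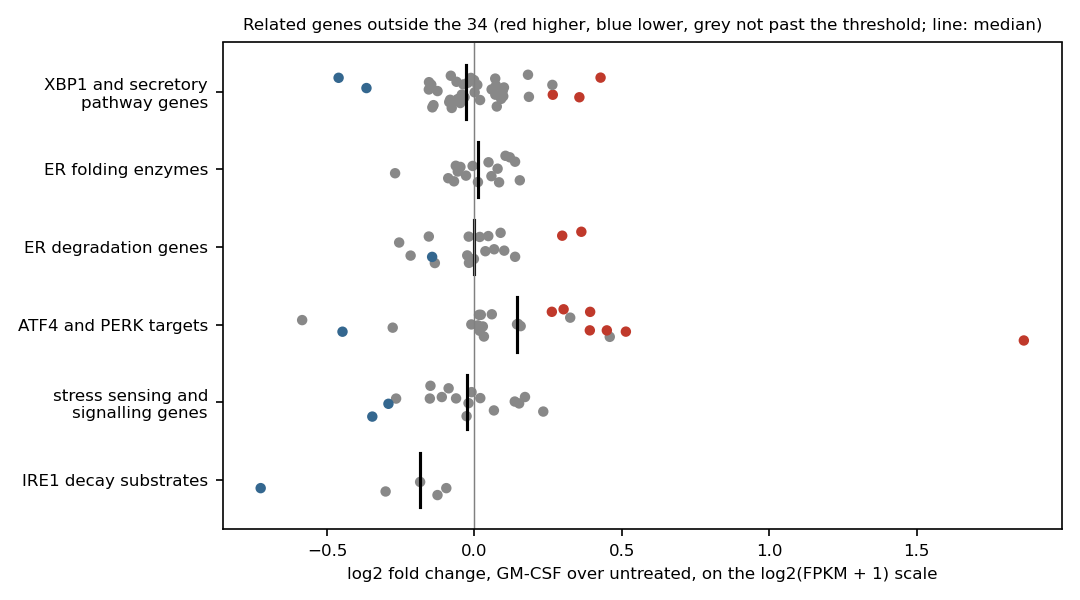
The log2 fold change (GM-CSF over untreated, log2(FPKM + 1) scale, horizontal axis) of the 123 tested genes in 6 related lists outside the members, with the median of each list as a vertical line. The ATF4 and PERK targets have 7 genes higher, and the folding enzymes have no gene past the threshold under the scaling drawn (3 under median-of-ratios scaling).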

How the data were processed

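The authors deposited 1 table per library with FPKM, coverage and length for 30374 RefSeq transcripts, per the file headers; read counts are not used here. Cufflinks, TopHat, TopHat2, bcl2fastq 1.8.4 and the build mm10 stand in the submitters' processing notes without settings, and libraries came from a stranded mRNA kit per the labels' protocols. The deposited coverage served only for depth: coverage divided by FPKM is the same for all transcripts of a library and gives its mapped gigabases.

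Rows were joined by transcript and FPKM summed per symbol. Genes averaging 1 FPKM or more (10106) were tested on log2(FPKM + 1) with limma 3.58.1 (R 4.3.3, empirical Bayes with trend, two-sided, Benjamini-Hochberg over all genes, threshold 0.05), 3 GM-CSF against 3 untreated libraries. Intervals are limma's 95% intervals, not adjusted for the number of genes.

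Members, role groups, related lists and marker lists (71 genes) were chosen with earlier results of these data known. Every member is accounted for, values in every library are given for changed members and for the main sensors and chaperones, and up to 4 changed genes with the largest log2 fold change are named per related list. Other names, such as Hyou1, Pdia6, Derl2 and Bloc1s1, were chosen after their values were seen. Of 143 related genes 142 matched a symbol (Rtcb did not). Gene positions and promoter windows come from RefSeq (GRCm38.p6), where Ero1l and Ero1lb matched as synonyms, and the Xbp1 site from GENCODE M21. GRCm38 is the assembly that mm10 names.

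Alternatives were other pseudocounts (0.1 and 0.5), no filter and a filter at 5 FPKM, median-of-ratios and quantile scaling, no trend, the highest transcript in place of the sum, a replicate block, and each library left out. The fit of single Xbp1 transcripts was added after seeing the data.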

Additional observations from a re-analysis of the deposited data

How the results depend on the processing

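Xbp1, Pdia4, Manf, Edem1, Herpud1, Eif2ak3 and Derl1 kept their direction and passed the threshold in all 15 alternatives, with Xbp1 between 2.34 and 2.61 on the log2 scale. Dnajb9 and Ero1l lost their calls in 8 and 6 of them, and members numbered 4 to 7 higher and 3 to 4 lower. Under median-of-ratios scaling 26 related genes rose, and under quantile normalization 20 rose, against 12 as reported. Median-of-ratios scaling also brought the log2 fold changes of Ppp1r15a, Hspa5, Hsp90b1, Calr and Sdf2l1 to 0.0668, 0.0302, 0.0713, 0.0307 and 0.0538, without a call. Quantile normalization gave Ddit3 -0.0181, Ppp1r15a 0.00224, Hsp90b1 0.00841 and Sdf2l1 0.0508, and the highest transcript alone gave Canx -0.48; none of these passed. The cause was not tested.

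Leaving out each library in turn gave 888 to 1117 genes lower in the whole table, the fewest without untreated replicate 2, and 4 to 8 related genes lower. Members near 0 changed sign there without a call: Atf4 ranged over -0.0174 to 0.0594, Ddit3 -0.0418 to 0.0779, Ppp1r15a -0.103 to 0.0669, Hsp90b1 -0.0377 to 0.0476, Sdf2l1 -0.0665 to 0.0471, Canx -0.0256 to 0.0440, Creld2 -0.00122 to 0.111, Sec61b -0.0442 to 0.0934 and Ssr1 -0.00161 to 0.0524.

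The labels give both groups replicate numbers 1 to 3 and do not say that they pair the cultures. Over all genes tested, same-numbered libraries did not deviate together from their group means (r of -0.03, 0.05 and -0.02). Not every library correlated best with its own number. Single genes differed in this: a block by replicate number lowered the SE of Ppp1r15a from 0.10 to 0.03 and that of Atf4 from 0.05 to 0.03. It raised the SE of Sec61b from 0.08 to 0.09. Whether same-numbered cultures share a cell preparation was not tested. With the replicate number as a block 1996 genes changed (723 higher, 1273 lower), 5 members rose and 3 fell, with Xbp1 at 2.54, and Dnajb9 lost its call (adjusted p = 0.0512). With 3 cultures a group, the 95% intervals of members that did not pass still reached -0.49 (Derl2) and 0.35 (Hyou1) on the log2 scale. Differences up to those sizes remain possible for these genes. For the other members the range is that of their own interval, such as -0.15 to 0.06 for Hspa5 and -0.10 to 0.15 for Atf4.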
